A study of Saccharomyces cerevisiae with 11 samples.

Results

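The genes described here encode the machinery that brings proteins into mitochondria in the budding yeast Saccharomyces cerevisiae. They are the subunits of 9 complexes or small groups, chosen by gene name from the known composition of each complex. No measured value entered that rule, but earlier results of these data were known when the genes were chosen. The set holds 35 of the 5756 genes listed in any library: 8 of the TOM complex, 1 of MIM, 4 of SAM, 2 of the MIA pathway, 5 small TIM chaperones, 3 of TIM22, 4 of TIM23, 6 of the import motor PAM and 2 of the processing peptidase MPP. All 35 were listed in each of the 11 libraries, with 153 to 103200 counts per library, and all 35 passed the filter on low counts in each comparison.

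Almost all mitochondrial proteins are made on cytosolic ribosomes and carried into the organelle as precursors. They enter through the TOM complex of the outer membrane and are then sorted: SAM inserts β-barrel proteins and MIM inserts α-helical proteins into the outer membrane, MIA oxidises cysteine-rich proteins of the intermembrane space, and the small TIM proteins escort hydrophobic precursors across that space. TIM22 inserts metabolite carriers into the inner membrane, while TIM23 with its motor PAM passes precursors that carry a cleavable presequence, which MPP removes in the matrix.

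The study compared yeast whose ribosomes lack ES7S, an expansion segment of the small-subunit rRNA, with yeast carrying the wild-type sequence. Ribosome-protected fragments (footprints) were sequenced in 3 ΔES7S and 3 WT libraries, and poly(A)-enriched, randomly fragmented mRNA in 3 ΔES7S libraries and 2 WT libraries, replicates 2 and 3; WT mRNA replicate 1 was not analysed here. In both strains the genomic rDNA is depleted and a plasmid supplies all rRNA, so WT here is not a yeast with chromosomal rDNA, and both were grown in YPD medium to the same optical density. The parent strain is named yJD1045 in the series description and yJD1046 in the sample labels. The labels do not say whether replicates came from separate cultures, so the p-values measure the spread between these libraries, which may be technical.

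The libraries held 5712239 to 57968667 counts. The deleted segment lies in rRNA and could not be checked in these gene tables. Levels are given as CPM, the count scaled to the library total, after TMM scaling, which corrects for differences in library composition; there was no spike-in, so each difference is relative to the other genes of the library. Over the 4224 genes that averaged 30 CPM or more, log2 CPM of library pairs correlated at 0.954 to 0.985 among ΔES7S footprint libraries, 0.988 to 0.991 among WT footprint libraries, 0.956 to 0.982 among ΔES7S mRNA libraries and 0.989 for the WT mRNA pair. ΔES7S mRNA replicate 1 had the 2 lower values of its group, 0.956 and 0.967, and member calls that depend on it are named below with that limit. The 137 ribosomal protein genes took 11.02, 7.91 and 5.33% of the footprint counts in ΔES7S replicates 1, 2 and 3, against 5.32, 5.31 and 5.45% in WT.

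Footprints of the import genes differed little between the strains. MIM1 was higher in ΔES7S, TIM54, MAS1 and PAM18 were lower, and 31 members did not pass the test (edgeR quasi-likelihood test, adjusted p under 0.05 after Benjamini-Hochberg adjustment over all 5442 genes tested). The 4 calls are 11.4% of the members, against 26.9% of all genes tested, 14.2% higher and 12.6% lower. The member log2 fold changes had a median of -0.09, against 0.00 for all genes tested, and an SD of 0.20, against 0.45. Only 3 of 35 members, 8.57%, lay beyond 0.5 in either direction, against 21.9% of all genes. The sign was negative in 29 of 35 members and in 49.9% of all genes.

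**Figure D1:**
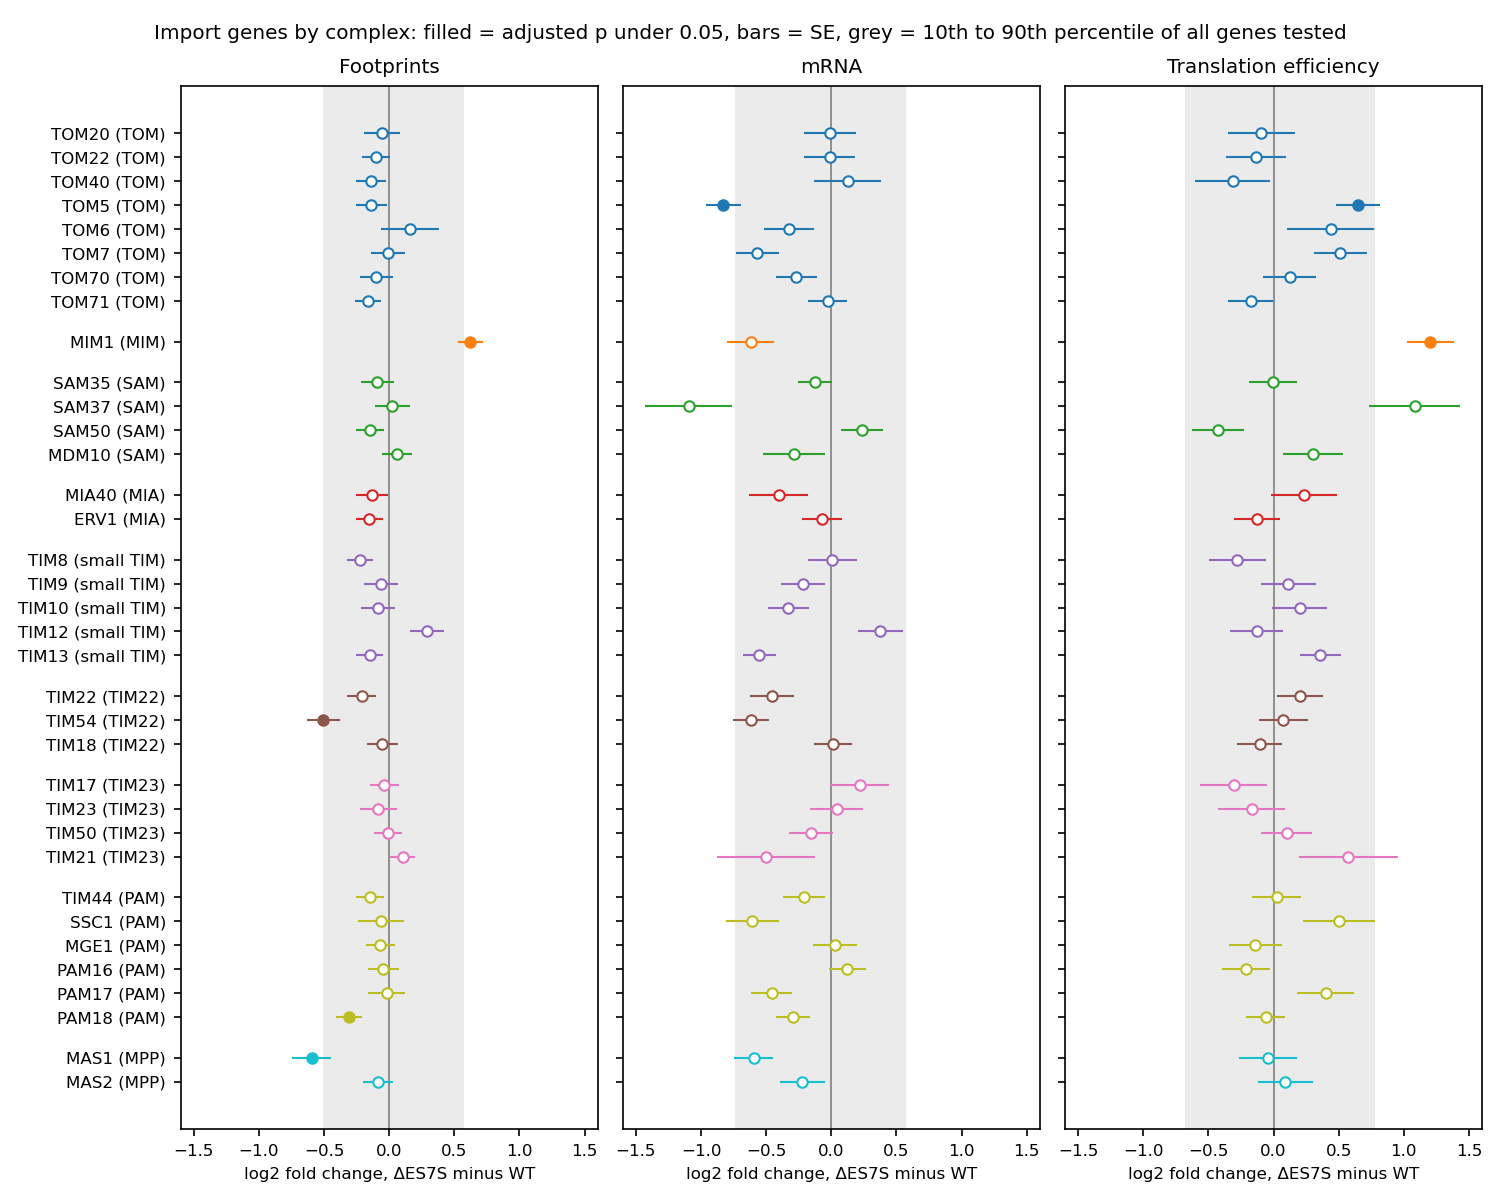
Log2 fold change (x axis, ΔES7S minus WT) of each of the 35 import genes (rows, grouped and coloured by complex) in footprints, mRNA and translation efficiency, with bars for the standard error and a grey band from the 10th to the 90th percentile of all genes tested. Filled points have an adjusted p under 0.05: 4 in footprints, 1 in mRNA and 2 in translation efficiency; most footprint points sit slightly left of 0.

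MIM1 (YOL026C) encodes the core subunit of the MIM complex, which inserts α-helical proteins, among them TOM receptors, into the outer membrane. Its footprint level was 153, 149 and 153 CPM in ΔES7S, against 101, 99.2 and 96.0 CPM in WT. Every ΔES7S library lay above every WT library, and the replicates of each strain were close together. The means were 152 ± 2.20 CPM in ΔES7S and 98.6 ± 2.43 CPM in WT (SD, n = 3 each), a log2 fold change of 0.62 ± 0.10 (SE) or 1.54-fold (edgeR adjusted p = 0.00163). The call held in each of the 6 fits that left out 1 footprint library, with adjusted p from 0.000872 to 0.0147, and in 7 other settings, with adjusted p from 2.48e-06 to 0.00792.

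TIM54 (YJL054W) encodes a TIM22 subunit with a large domain in the intermembrane space. It had 45.6, 49.95 and 62.8 footprint CPM in ΔES7S, against 72.2, 76.7 and 74.2 CPM in WT. All 3 ΔES7S libraries were lower, and they spread more widely than the WT libraries. The log2 fold change was -0.51 ± 0.13 (SE, n = 3 each, edgeR adjusted p = 0.0145). The call was lost without ΔES7S footprint replicate 2, WT replicate 2 or WT replicate 3, with adjusted p from 0.000933 to 0.0716 over the 6 fits that left out 1 library.

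MAS1 (YLR163C) encodes the β-subunit of MPP, which carries the catalytic site of the presequence peptidase. Its footprint level was 104.6, 138.6 and 158.8 CPM in ΔES7S, against 214.5, 192.2 and 199.6 CPM in WT. The groups did not overlap, and the ΔES7S libraries differed among themselves more than the WT libraries did. The log2 fold change was -0.60 ± 0.15 (SE, n = 3 each, edgeR adjusted p = 0.0144). The call was lost without ΔES7S replicate 2, WT replicate 1 or WT replicate 3, with adjusted p from 0.00133 to 0.0568 over the 6 fits. For both MAS1 and TIM54 the ΔES7S library with the lowest level, replicate 1, was also the one with the highest share of ribosomal protein counts, 11.02%; the part of that share in the result was not tested. MAS2 (YHR024C), the α-subunit that binds the presequence with MAS1, had 152, 153 and 188 footprint CPM in ΔES7S, against 177, 174 and 171 CPM in WT. Its groups overlapped, and its log2 fold change of -0.09 did not pass (adjusted p = 0.615).

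PAM18 (YLR008C) encodes the J-protein that stimulates the ATPase of the motor's Hsp70. It had 102, 106 and 98.7 footprint CPM in ΔES7S, against 119, 128 and 133 CPM in WT. The groups did not overlap, but the gap between the nearest libraries was small. The log2 fold change was -0.31 ± 0.10 (SE, n = 3 each, edgeR adjusted p = 0.0415). It was the least stable of the 4 calls: it passed in 1 of 6 fits that left out 1 library (without WT replicate 1), with adjusted p from 0.0494 to 0.147, and was lost with the replicate number as a block (adjusted p = 0.0636, the highest of the 7 other settings, the lowest being 0.0311).

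**Figure D2:**
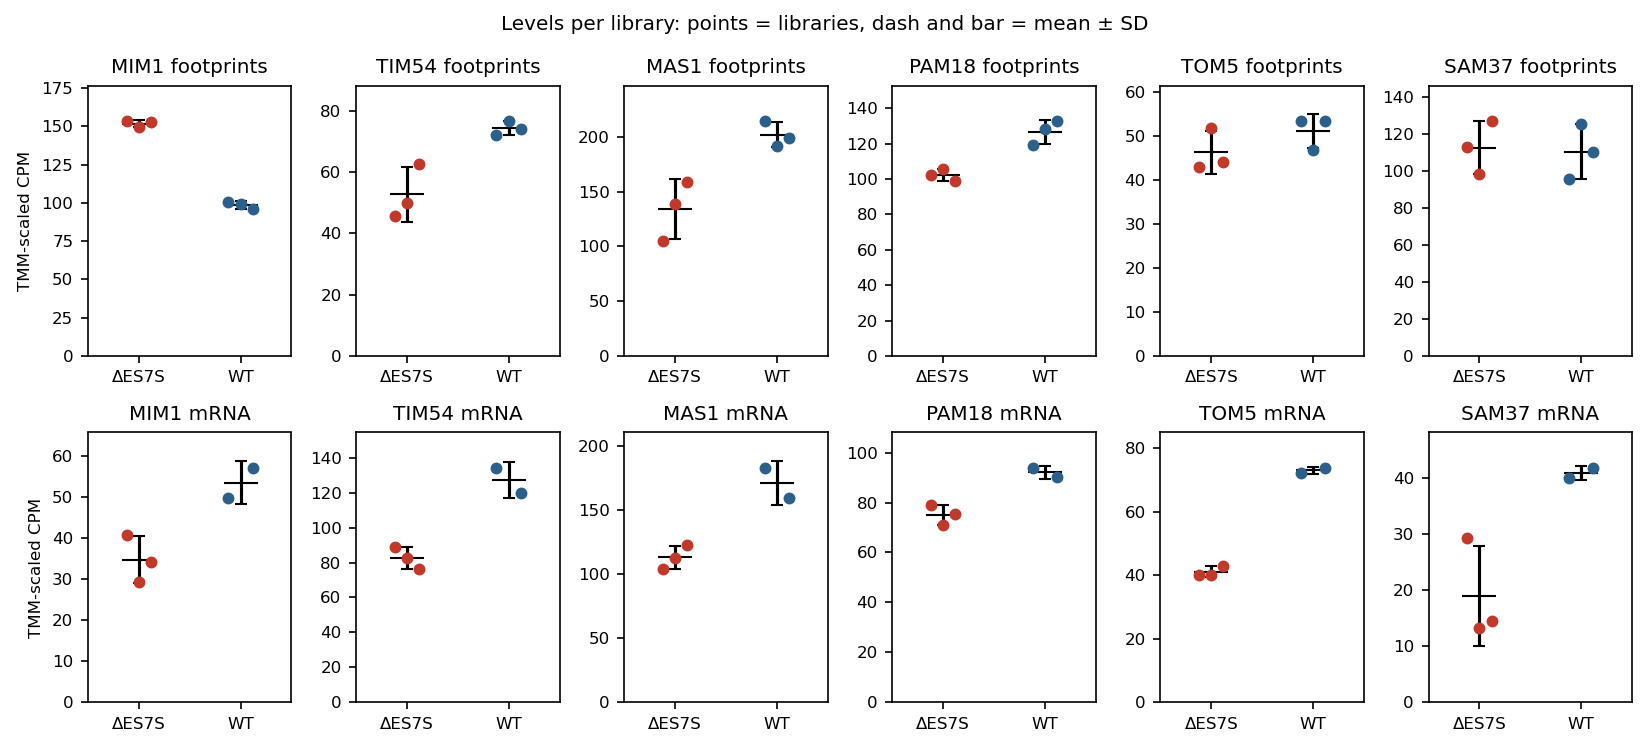
TMM-scaled CPM (y axis from 0, own scale in each panel) of 6 import genes in each ΔES7S (red, left) and WT (blue, right) library, footprints above and mRNA below, with a dash and bar for mean ± SD. MIM1 footprints lie at 149 to 153 CPM in ΔES7S and 96.0 to 101 CPM in WT, while MIM1 mRNA lies lower in ΔES7S; SAM37 shows separate mRNA groups and overlapping footprint groups.

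The other complexes showed footprint differences that did not pass. In TOM the log2 fold changes ran from -0.16 for TOM71, a receptor closely related to TOM70, to 0.16 for TOM6, a small subunit that helps assemble the complex. TOM6 is a case where a library decides: it had 140, 125 and 73.7 CPM in ΔES7S, against 92.4, 118 and 95.1 CPM in WT, and ΔES7S replicate 3 lay below all other libraries. Without that library its adjusted p was 0.0394, the lowest of its 6 such fits, which reached 0.955. In SAM the range was -0.15 (SAM50, the β-barrel core) to 0.06 (MDM10, which SAM shares with the ER-mitochondria tether ERMES). MIA40, the oxidoreductase, and ERV1, which reoxidises it, had -0.13 and -0.15.

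Among the small TIM genes the footprint log2 fold changes ran from -0.22 (TIM8, adjusted p = 0.117) to 0.29 (TIM12, the small TIM bound to TIM22, adjusted p = 0.127). TIM12 had 56.8, 54.4 and 46.9 footprint CPM in ΔES7S, against 38.2, 49.96 and 41.2 CPM in WT, so that 1 ΔES7S library lay within the WT range. In TIM22 the highest value was -0.05 (TIM18). In TIM23 the range was -0.08 (TIM23, a channel subunit) to 0.11 (TIM21, which links TIM23 to TOM and to the respiratory chain). In PAM, beside PAM18, the highest was -0.02 (PAM17), and SSC1, the mitochondrial Hsp70 that drives import, had -0.06 ± 0.17 (SE). The ΔES7S and WT footprint libraries did not overlap for 9 members, 25.7%, against 42.6% of all genes tested. Of these, 2 were higher and 7 lower in ΔES7S, against 21.5% higher and 21.2% lower among all genes.

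In mRNA, TOM5 was lower in ΔES7S and no other member passed the edgeR test, although the median of the import mRNAs lay below that of all genes. The 1 call is 2.86% of the members, against 2.76% of all 5611 genes tested, 1.19% higher and 1.57% lower, so its frequency is that of the background. The member median log2 fold change was -0.22, against -0.01 for all genes tested, and 26 of 35 values were negative, against 51.0% of all genes. The ΔES7S and WT libraries did not overlap for 18 members, 51.4%, against 54.9% of all genes tested. Of these members 17 were lower in ΔES7S and 1 higher, 48.6% and 2.86% of the set, against 28.5% lower and 26.3% higher among all genes. At an unadjusted p under 0.05 there were 10 members, 28.6%, against 30.8% of all genes, so that share too is near the background. In mRNA the ribosomal protein genes took 14.4, 16.4 and 13.0% of the counts in ΔES7S, against 10.5 and 12.8% in WT; the part of that difference in the low median was not tested.

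TOM5 (YPR133W-A) encodes a small TOM subunit that hands precursors from the receptors to the TOM40 channel. Its mRNA level was 40.2, 40.2 and 43.1 CPM in ΔES7S, against 72.2 and 73.9 CPM in WT. The groups were far apart relative to the spread within each. The log2 fold change was -0.83 ± 0.13 (SE, n = 3 and 2), 1.78-fold lower (edgeR adjusted p = 0.0355). The fold change stayed between -0.86 and -0.81 when 1 library was left out, but the call was lost without ΔES7S replicate 2 or 3 or WT replicate 2 or 3 (adjusted p from 0.00304 to 0.312 over the 5 fits); it held in the 7 other settings, with adjusted p from 2e-05 to 0.0444.

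The mRNA count depended on the test and on 1 library. DESeq2 called 8 members, all lower, against 9.09% of all genes lower. The fit over all 11 libraries also called 8 lower, against 13.2%. Leaving out ΔES7S mRNA replicate 1 gave 12 lower and 1 higher, against 24.4% of all genes lower and 19.7% higher. The 12 include PAM17, TIM22, MIA40 and PAM18 (edgeR adjusted p = 0.0139, 0.0212, 0.0368 and 0.0456), which did not pass with all libraries. Leaving out any other mRNA library gave 0 members by edgeR, but also 0 of all genes; at an unadjusted p under 0.05 there were 5 to 12 members and 660 to 1344 genes. With all libraries limma-voom gave 1 member. The replicate block called 11 lower, against 21.2% of all genes. In that fit ΔES7S mRNA replicate 1 had no WT library of its number, so it did not bear on the strain difference. In all 4 settings with more calls the same 7 members were lower: MAS1, MIM1, SAM37, TIM13, TIM54, TOM5 and TOM7. These settings are not independent: the block and the fit without ΔES7S mRNA replicate 1 both set that library aside. Their main log2 fold changes lay between -1.10 (SAM37) and -0.55 (TIM13).

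SAM37 (YMR060C), a peripheral SAM subunit that releases finished β-barrels, had 29.3, 13.3 and 14.6 mRNA CPM in ΔES7S, against 40.1 and 41.9 CPM in WT. All 3 ΔES7S libraries were below WT, with replicate 1 nearest to it. The log2 fold change was -1.10 ± 0.33 (SE, adjusted p = 0.0927), and it was -1.55 without ΔES7S replicate 1 (adjusted p = 0.00135; 0.00135 to 0.386 over the 5 fits that left out 1 library). SAM50, the core of the same complex, had 88.1, 113 and 116 mRNA CPM in ΔES7S, against 91.2 and 88.8 CPM in WT. ΔES7S replicate 1 lay below both WT libraries and the other ΔES7S libraries above them, and the log2 fold change was 0.23 (adjusted p = 0.344). Without replicate 1 it was 0.36 (adjusted p = 0.0319, 0.0319 to 0.694 over the 5 fits).

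Within TOM the lowest mRNA log2 fold changes were those of the small subunits, a grouping that was not tested. The small subunits TOM5, TOM6 and TOM7 had log2 fold changes of -0.83, -0.33 and -0.57 (adjusted p = 0.0355, 0.275 and 0.0857). The receptors TOM20 and TOM22 both had -0.01, TOM70 had -0.27, and the channel TOM40 had 0.13, the highest of the complex. TOM40 had 413.5, 720.5 and 617 mRNA CPM in ΔES7S, against 534 and 536 CPM in WT, so replicate 1 lay below WT and the other ΔES7S libraries above. Without replicate 1 its log2 fold change was 0.33 (adjusted p = 0.153, 0.153 to 0.903 over the 5 fits). TOM7, which counteracts assembly of the complex, had 34.7, 26.9 and 32.6 mRNA CPM in ΔES7S, against 45.9 and 47.3 CPM in WT, with no overlap.

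In the translocases of the inner membrane the mRNA values spread over a range within each complex. In TIM22, TIM54 had 89.1, 82.6 and 76.2 mRNA CPM in ΔES7S, against 134 and 120 CPM in WT, and a log2 fold change of -0.62 ± 0.14 (SE, adjusted p = 0.0564). TIM18 was the highest of that complex at 0.01. In TIM23 the range was -0.50 (TIM21) to 0.22 (TIM17, a channel subunit, with 0.40 and adjusted p = 0.0630 without ΔES7S replicate 1). TIM21 had 54.2, 19.2 and 30.1 mRNA CPM in ΔES7S, against 47.8 and 50.4 CPM in WT: ΔES7S replicate 1 was above WT and the other ΔES7S libraries well below it, and its adjusted p was 0.377 with all libraries and 0.0111 without replicate 1, over a range up to 0.685.

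Among the motor genes SSC1 (YJR045C) had 1053, 1120 and 1232 mRNA CPM in ΔES7S, against 1797 and 1661 CPM in WT. The groups did not overlap; the log2 fold change was -0.61 ± 0.20 (SE, adjusted p = 0.111), and DESeq2 alone called it (adjusted p = 0.00514, 0.00514 to 0.217 over the 7 settings beside leaving out a library). SSC1 has a close paralog, ECM10, with which reads may be shared. PAM16, the J-like partner that restrains PAM18, was the highest of the motor at 0.12. MAS1 mRNA was 104.4, 112.6 and 122.6 CPM in ΔES7S, against 183 and 159 CPM in WT, with no overlap, and had a log2 fold change of -0.60 ± 0.15 (SE, adjusted p = 0.0650), and MAS2 had -0.22 (adjusted p = 0.392). In the intermembrane space, MIA40 had -0.40 and ERV1 -0.07, while the small TIM genes ran from -0.55 (TIM13, adjusted p = 0.0564) to 0.38 (TIM12, adjusted p = 0.177), the only member whose ΔES7S mRNA libraries all lay above WT.

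Translation efficiency, the footprint level relative to the mRNA level, was tested as the interaction of strain and assay in a fit over all 11 libraries. MIM1 and TOM5 were higher in ΔES7S, none was lower and 33 members did not pass. The 2 calls are 5.71% of the members, against 8.97% of all 5588 genes tested, 4.63% higher and 4.33% lower. By edgeR 5 members, 14.3%, had an unadjusted p under 0.05, against 29.0% of all genes, and DESeq2 called 3 higher and none lower, against 8.5% of all genes higher. With upper-quartile factors the same 2 members were called, but the median of all genes moved by 0.11 and the calls over all genes were 278 higher and 139 lower, against 259 and 242. The member median log2 difference was 0.08, against -0.01 for all genes tested.

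With all libraries MIM1 had the largest difference of the 35. Its mRNA level was 40.9, 29.4 and 34.2 CPM in ΔES7S, against 49.9 and 57.3 CPM in WT, with no overlap and in the direction opposite to its footprints. The mRNA log2 fold change was -0.62 ± 0.18 (SE, adjusted p = 0.0874). The log2 ratio of footprints to mRNA was 2.09 in ΔES7S and 0.88 in WT, the 94.2 and 81.1 percentile of all genes in that strain. The difference in translation efficiency was 1.202 ± 0.18 on the log2 scale, 2.30-fold (edgeR adjusted p = 0.00760), and passed in all 11 fits that left out 1 library (adjusted p from 0.000236 to 0.0486) and in the 6 other settings (4.73e-07 to 0.0269).

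TOM5 footprints were 43.0, 51.9 and 44.0 CPM in ΔES7S, against 53.3, 46.7 and 53.3 CPM in WT. These groups overlapped, unlike its mRNA, and the footprint log2 fold change was -0.14 (adjusted p = 0.418). The log2 ratio was 0.12 in ΔES7S and -0.53 in WT, a difference of 0.65 ± 0.17 (SE, edgeR adjusted p = 0.0387). The call was lost with the replicate block (adjusted p = 0.0713, 0.00775 to 0.0713 over the 6 other settings) and in 8 of 11 fits that left out 1 library (0.0164 to 0.143), namely those without ΔES7S footprint replicate 2, any WT footprint library, ΔES7S mRNA replicate 2 or 3, or either WT mRNA library.

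SAM37 had a difference of 1.08 ± 0.35 (SE) that missed the threshold (adjusted p = 0.0672). Its footprints were 113, 98.3 and 127 CPM in ΔES7S, against 95.8, 125 and 110 CPM in WT, and overlapped throughout. DESeq2 called it (adjusted p = 0.0296, 0.0296 to 0.0746 over the 6 other settings), as did the fit without ΔES7S mRNA replicate 1 (0.000426, up to 0.179 over the 11 fits). That fit called 8 members, 5 higher (MIM1, SAM37, TIM21, TOM5 and TOM7) and 3 lower (SAM50, TIM17 and TIM8), against 17.4% of all genes higher and 15.7% lower. With all libraries the lowest values were -0.43 for SAM50 and -0.31 for TOM40 (adjusted p = 0.178 and 0.491). For TIM54, MAS1 and PAM18, which were lower in footprints, the differences in efficiency were 0.08, -0.04 and -0.06 (adjusted p = 0.825, 0.922 and 0.827).

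The remaining differences in efficiency lay between those of SAM50 and SAM37. The small TIM genes ran from -0.28 (TIM8) to 0.36 (TIM13), TIM22 from -0.11 (TIM18) to 0.20 (TIM22), TIM23 from -0.30 (TIM17) to 0.57 (TIM21), and the motor from -0.21 (PAM16) to 0.50 (SSC1). MIA40 had 0.23 and ERV1 -0.13, and MAS2 had 0.09. None of these passed.

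Across the full set of import genes, MIM1 included, footprint and mRNA differences were hardly related. Across the 35 genes the Pearson correlation of the log2 fold changes was 0.06 and Spearman's 0.01. Across 5433 genes tested in both assays they were 0.33 and 0.31. MIM1 lay apart from the other members, with 0.62 in footprints and -0.62 in mRNA. The Pearson correlation without it was not computed, so how far the low value rests on MIM1 is not known. Genes are not independent replicates and these correlations are descriptions. Both differences were negative for 21 members and both positive for 1, TIM12. Footprints were higher and mRNA lower for 5, and footprints lower and mRNA higher for 8. The SD of the member values was 0.20 in footprints and 0.33 in mRNA, against 0.45 and 0.52 across the 5433 genes.

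**Figure D3:**
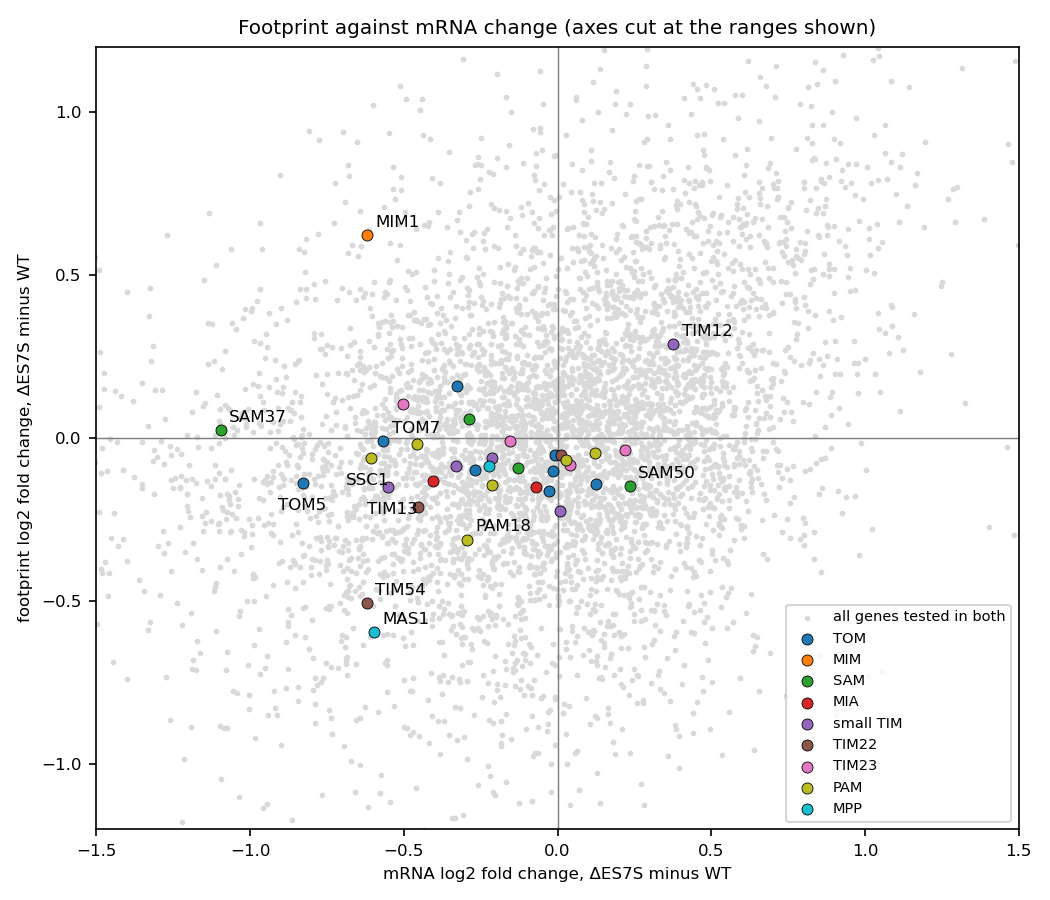
Footprint log2 fold change (y axis) against mRNA log2 fold change (x axis), both ΔES7S minus WT, for the import genes (coloured by complex) and all genes tested in both assays (grey, with 147 of 5433 outside the axes). MIM1 is the highest member, at upper left, TIM54 and MAS1 at lower left, and most members form a flat band of footprint values just under 0.

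The ratio of footprints to mRNA within a strain gave a similar order of the members in both strains, with a Spearman correlation of 0.917 across the 35 genes, against 0.858 across all genes. The log2 ratio of the members ran from -1.33 to 2.61 in ΔES7S and from -1.17 to 1.98 in WT, with medians of 0.32 in ΔES7S and 0.19 in WT, against 0.00 and 0.01 for all 5498 genes. It lay above the median of all genes for 23 members in ΔES7S and 21 in WT. MIA40 was high in both, 2.25 ± 0.23 in ΔES7S and 1.98 ± 0.10 in WT (SE), as were TIM9 (1.56 in ΔES7S and 1.45 in WT) and TIM22 (1.365 in ΔES7S and 1.153 in WT). At the low end TOM71 had -1.33 in ΔES7S and -1.17 in WT, TOM40 -1.32 in ΔES7S and -1.05 in WT, and TIM23 -0.98 in ΔES7S and -0.84 in WT. TIM44, which tethers SSC1 to the channel, had -0.88 in ΔES7S and -0.91 in WT, and TOM20 -0.87 in ΔES7S and -0.79 in WT. The neighbours TOM71 and TOM40 in that order differed by less than their standard errors in ΔES7S. SAM37 stood highest in ΔES7S, 2.61 ± 0.36, against 1.42 ± 0.12 in WT (SE).

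**Figure D4:**
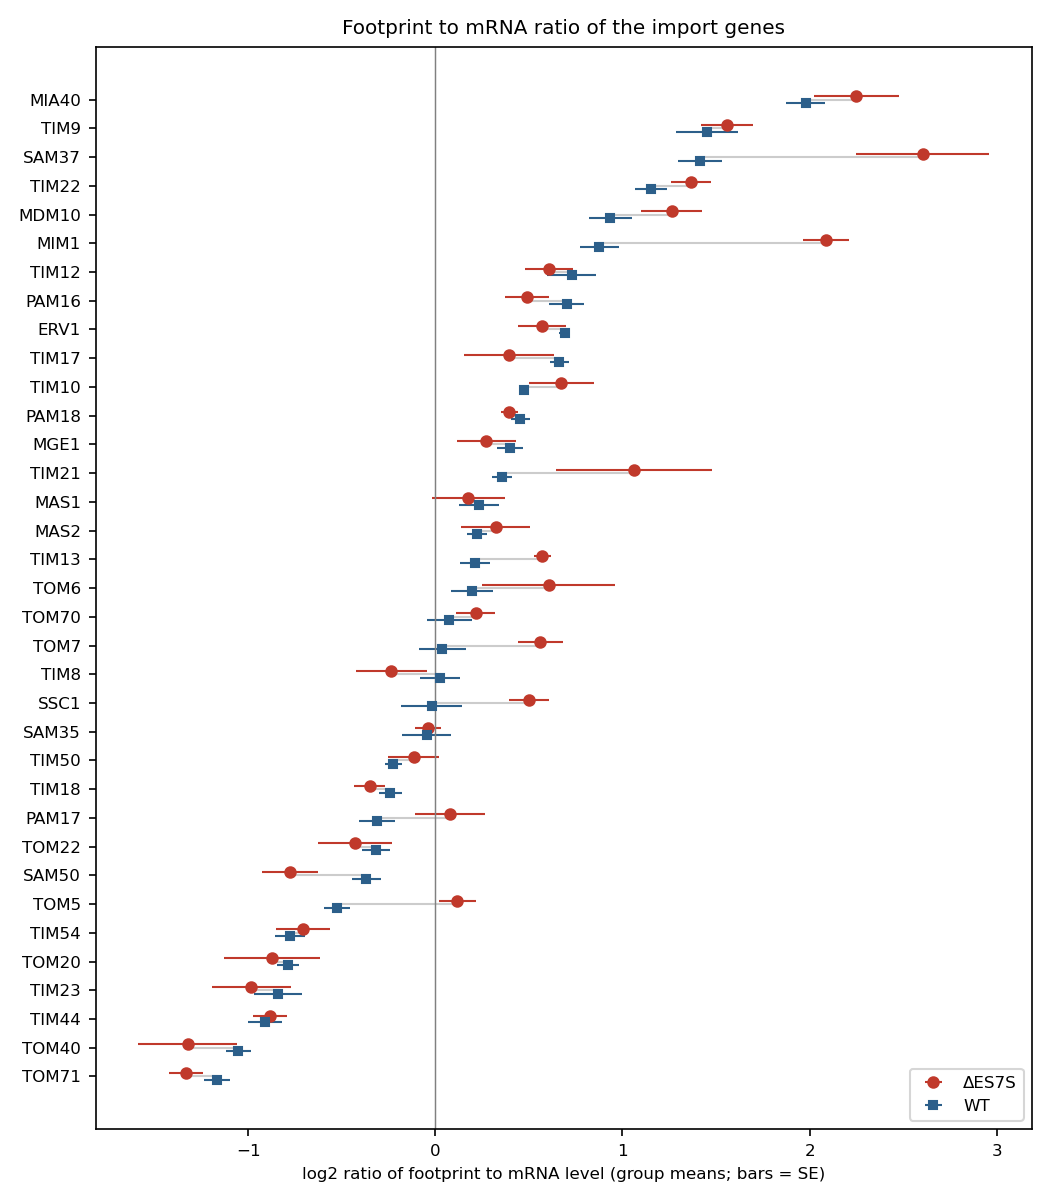
Log2 ratio of footprint to mRNA level (x axis, group means with bars for the standard error) of the 35 import genes, ordered by the WT value, in ΔES7S (red circles) and WT (blue squares). The long gaps between strains are those of MIM1 (2.09 in ΔES7S, 0.88 in WT) and SAM37 (2.61 in ΔES7S, 1.42 in WT); TOM71 and TOM40 are lowest in both strains.

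Summed over all 35 members, the footprint level was 5716, 6001 and 5740 CPM in ΔES7S, against 6589, 6074 and 5774 CPM in WT, a ratio of 0.947 with overlapping groups. The summed mRNA level was 4553, 5514 and 5179 CPM in ΔES7S, against 6164 and 5985 CPM in WT, a ratio of 0.837 without overlap. Much of that gap lay in SSC1, the most counted member: without it the mRNA sums were 3500, 4394 and 3946 CPM in ΔES7S, against 4368 and 4323 CPM in WT, a ratio of 0.908 with overlap. By complex the mRNA ratio was lowest for MIM, here MIM1 alone (0.650), TIM22 (0.724), PAM (0.728) and MPP (0.752). It was 0.961 for TOM and 1.003 for TIM23. MIM2, which is not in the set, had log2 fold changes of 0.16 in footprints and 0.01 in mRNA (edgeR adjusted p = 0.347 and 0.974). The PAM ratio rested on SSC1: without it the mRNA sums were 665, 731 and 680 CPM in ΔES7S, against 788.5 and 770.5 CPM in WT, a ratio of 0.888. The footprint ratio was 1.54 for MIM, 0.793 for MPP and 0.817 for TIM22, and lay between 0.910 and 0.983 for the other 6 groups. Within MPP and the TIM22 complex only MAS1 (0.662-fold) and TIM54 (0.704-fold) passed the edgeR test in footprints. MAS2 (0.942-fold), the gene TIM22 (0.864-fold) and TIM18 (0.965-fold) did not. The TOM mRNA sums were 1135, 1670 and 1458 CPM in ΔES7S, against 1483 and 1475 CPM in WT, with overlap and with replicate 1 lowest. These sums carry no test.

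Genes that work beside the machinery were counted from 4 further lists. Of 23 other import, folding and processing genes, 2 were higher and 2 lower in footprints, 2 were lower in mRNA and 5 higher in translation efficiency. In footprints that is 8.7% in each direction, under the 14.2% higher and 12.6% lower of all genes, while 8.7% lower in mRNA and 21.7% higher in efficiency stand against 1.57 and 4.63% of all genes. Their highest footprint value was HSP78, a matrix disaggregase, with a log2 fold change of 0.91 ± 0.17 (SE, adjusted p = 0.00442), and the lowest was ECM10, the SSC1 paralog, with -0.46 (adjusted p = 0.0278). OXA1, the inner-membrane insertase, had the lowest mRNA value, -1.73 ± 0.29 (SE, edgeR adjusted p = 0.0355). The mRNA and efficiency counts of this list and of the lists below are small and depend on the libraries. In mRNA edgeR called 0 genes without ΔES7S replicate 2 or 3, and 2467 without replicate 1. In efficiency it called 69 genes without WT footprint replicate 3 and 1848 without ΔES7S mRNA replicate 1, against 501 with all libraries. The list calls were not followed through these fits.

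Of 16 MIA substrates, small cysteine-rich proteins, 3 were higher and 2 lower in footprints, 3 were lower in mRNA and 5 higher in translation efficiency. The footprint shares, 18.8% higher and 12.5% lower, are near those of all genes (14.2 and 12.6%), and the 18.8% lower in mRNA and 31.2% higher in efficiency stand against 1.57 and 4.63%. COX17 and COX23, both needed for cytochrome c oxidase assembly, were lower in footprints (-0.37 and -0.43) and in mRNA (-1.17 and -1.36) and higher in efficiency (0.76 and 0.89). Of 20 carriers, the substrates of TIM22, 3 were higher and 3 lower in footprints, 1 was higher in mRNA, and 1 was higher and 2 lower in efficiency. These counts are few, and the footprint counts, 3 of 20 in each direction, are near the 14.2 and 12.6% of all genes; in efficiency all genes had 4.63% higher and 4.33% lower, and in mRNA 1.19% higher. Their footprint values ran from -0.68 (YMC1) to 0.73 (CTP1, the citrate carrier). Of the 4 ERMES partners of MDM10, MDM34 was higher in efficiency, with 0.85 ± 0.25 (SE, adjusted p = 0.0484). The 4 had footprint log2 fold changes from -0.14 to 0.21 and mRNA log2 fold changes from -1.04 to 0.07. The lists' median log2 differences in efficiency were 0.16, 0.18, -0.52 and 0.61 in the order given, against 0.08 for the import machinery. Their median mRNA log2 fold changes were -0.20, -0.39, 0.34 and -0.46, against -0.22 for the import machinery, so a low mRNA median was not particular to it.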

How the data were processed

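The authors deposited 1 table of raw counts per gene for each library. Per the submitters' processing notes FastQC 0.11.7 and Bowtie 1.2.3 were used; genome build, annotation and counting tool were not given in the sources used here. Reads that match several genes may therefore have been split or dropped. A gene missing from a library's table was taken as 0. Symbols came from an NCBI RefSeq gene table (5752 of 5756 IDs matched), in which 0 members overlap another entry.

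Counts were tested in R 4.3.3 with edgeR 4.0.16 (filterByExpr, TMM, robust quasi-likelihood F-test, two-sided, Benjamini-Hochberg, threshold 0.05), separately for footprints and mRNA, and over all 11 libraries for translation efficiency. The same procedure was also run on simulated counts with planted changes larger than most member differences given here. That run does not bear on differences of the smaller sizes. Alternatives were DESeq2 1.42.0 and its size factors, limma-voom (limma 3.58.1), upper-quartile factors, no filter, a joint fit, a replicate block and leaving out each library. CPM values are counts divided by the TMM-scaled library total. In no group did 2 libraries agree within counting noise. No molecular identifiers are named, so a count is a count of reads.

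The members and the gene lists were chosen with earlier results of these data known. Each member past the threshold, and the lowest and highest log2 fold change of each complex, is named; members beyond these are named where a library or an alternative decides a value, after their values were seen. A further part of the rule, the highest level per length, was not applied because no gene lengths of a stated build were used, and for the same reason no coordinates are given.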

Additional observations from a re-analysis of the deposited data

How the results depend on the processing

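MIM1 kept its calls in footprints and translation efficiency in every setting run. In footprints, leaving out 1 library gave 684 to 1749 genes (1463 with all) and 1 to 4 members (4 with all). In mRNA, 155 genes were called by edgeR, against 1036 by DESeq2, 327 by limma-voom, 1463 in the joint fit and 0 to 2467 without 1 library; members numbered 1, against 8 by DESeq2, 8 in the joint fit and 0 to 13 without 1 library. In translation efficiency, 501 genes were called, against 903 by DESeq2 and 11 to 1848 without 1 library, and 2 members, against 1 to 8. The cause was not tested.

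Whether replicate numbers pair the libraries could not be decided. Same-numbered ΔES7S and WT libraries deviated with correlations of 0.006, 0.197 and 0.088 in footprints and -0.147 and -0.665 in mRNA. Footprint and mRNA libraries of 1 number gave -0.042 to 0.432. Footprint pairs of unlike number gave -0.3 to 0.089. Deviations from the mean of so few libraries are tied to each other, and those of the WT mRNA libraries are mirror images. With the replicate block the calls were 1341 genes and 3 members in footprints, 1924 and 11 in mRNA, and 313 and 1 in translation efficiency. In mRNA the block sets ΔES7S replicate 1 aside, as stated above. In translation efficiency it sets WT footprint replicate 1 aside, which has no mRNA library of its number. That block and the fit without WT footprint replicate 1 are therefore not independent.

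Among single members, 1400 alternative values kept their side of the threshold, 44 passed newly, 25 no longer passed and 1 moved by more than its error. Of the called values 0 reversed. Within these 1470 alternative values, 81 uncalled values changed sign. The WT mRNA group held 2 libraries, so that without either its spread rests on the ΔES7S libraries.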
